A study of Mus musculus with 6 samples.

Results

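Zinc finger genes named Zfp with a number were followed in mouse pancreatic islets, which hold the hormone cells of the pancreas. A gene was included when its symbol was Zfp with a number and at most 1 further letter, and when it had at least 100 raw counts in each of the 6 libraries of the study. Members were thus selected on the level of their raw counts, with the same minimum in both genotypes. Among 24407 genes counted, 360 carried such a name, and 229 of these (63.6%) met the minimum. The study compared 2 genotypes of C57BL/6 mice, both 70 weeks old and kept on regular chow. LCS mice, whose titles read KIKI, make lamin C as the only product of Lmna, the gene that otherwise gives both lamin A and lamin C of the nuclear lamina. WT mice were wild type. There were 3 libraries per genotype, and each held the islets of 3 mice, so a replicate is a pool and the spread between single mice was not seen. The sex of the mice is not given in the sources used here.

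A zinc finger of this type is a short loop of protein held together by a zinc ion between a pair of cysteines and a pair of histidines. Proteins with many such fingers in a row read a stretch of DNA, about one finger after another, and form the largest group of DNA-binding factors in mammals. Many of them also carry a KRAB box, which recruits the corepressor Trim28 and with it the histone methyltransferase Setdb1 and HP1 proteins to retroelements and imprinted regions. Other Zfp genes carry the name for their fingers alone and code for RNA-binding proteins, ubiquitin ligases or ribosome assembly factors.

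The members differed in base composition, and the fold changes described below followed it. To show what that means in sequence, 1 finger is printed from 2 members of low GC content (the share of G and C bases in the longest transcript), Zfp329 at 39.7% and Zfp871 at 40%, and from 2 members of high GC content, Zfp574 at 58.3% and Zfp768 at 59.7%. Each is the first unit of 84 bases in the coding sequence that holds a finger and the linker to the next, read 5′ to 3′ on the sense strand of the GENCODE M21 transcript (build GRCm38). Capitals mark the codons of the 2 cysteines and 2 histidines.
Zfp329, transcript bases 669 to 752: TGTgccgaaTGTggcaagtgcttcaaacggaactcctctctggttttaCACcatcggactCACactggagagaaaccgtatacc
Zfp871, transcript bases 730 to 813: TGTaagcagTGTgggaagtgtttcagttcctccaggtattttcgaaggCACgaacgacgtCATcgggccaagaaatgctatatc
Zfp574, transcript bases 1223 to 1306: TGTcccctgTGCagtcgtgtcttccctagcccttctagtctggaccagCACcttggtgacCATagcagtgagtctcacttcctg
Zfp768, transcript bases 1215 to 1298: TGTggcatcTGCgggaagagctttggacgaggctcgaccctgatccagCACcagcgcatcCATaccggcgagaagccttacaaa
The codons in capitals code for the same 4 residues in each unit. GC content of the printed unit was 50% in Zfp329, 47.6% in Zfp871, 56% in Zfp574 and 58.3% in Zfp768. Over all units of this form it was 45.3% in Zfp329 (11 units), 47% in Zfp871 (14), 60.2% in Zfp574 (7) and 60.8% in Zfp768 (9).

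Libraries held 26123654 to 68036676 counts, and 19057533 to 32462401 counts outside the rows Rn45s, Lars2 and Mir6236. These rows took 52.3% to 54.1% of LCS counts and 7.64% to 18.5% of WT counts. They are called the ribosomal rows below, and whether their reads came from ribosomal RNA was not tested. Levels are given as CPM, which are counts scaled to library size with edgeR's TMM factors. The 6 islet hormone genes summed to 193428 to 288312 CPM in LCS and 159847 to 187111 CPM in WT, so the tissue label fits its defining genes. These sums did not overlap. Of the 6 genes, 5 had a higher value in LCS and 1 was called higher (edgeR adjusted p under 0.05). Acinar markers summed to 480.8 to 864.2 CPM in LCS against 127.4 to 207.8 CPM in WT, and 12 of 14 were called higher in LCS (edgeR adjusted p under 0.05). Macrophage markers (1 of 7 called higher) summed to 75.8 to 92.5 CPM against 51.4 to 64.6. Of these 7, however, 4 were higher and 3 lower in LCS, with a median log2 fold change (LCS over WT) of 0.075. Lymphoid markers (6 of 7 found, 0 called) summed to 26.2 to 63.7 CPM against 8.41 to 22.2. Amy2a5 (acinar) and Cftr (duct) were at 0 in at least 1 library. The 8 beta cell markers summed to 1620 to 2029 CPM in LCS and 1989 to 2718 in WT, with 0 called, and duct, endothelial and stromal sums overlapped. In bulk RNA fewer cells of a type and less RNA per cell cannot be told apart, and the part of these shifts in the member values was not tested. Lmna had 62.0 to 78.9 CPM in LCS and 61.3, 27.3 and 21.0 CPM in WT replicates 1 to 3 (edgeR adjusted p = 0.155), so WT replicate 1 lay next to the LCS libraries for this gene, and one count for the whole gene cannot tell its lamin A and lamin C transcripts apart.

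The minimum of 100 was set on raw counts, so it weighed most on the libraries with the fewest counts for these genes. The lowest raw count of a member lay in LCS replicate 3 for 128 members and in LCS replicate 1 for 70. Of the 131 Zfp genes below the minimum, 88 fell short in both genotypes, 38 in LCS libraries alone and 5 in WT libraries alone, and 8 had no count in any library. Just inside were Zfp707 (lowest count 103) and, at 105 each, Zfp11, Zfp213, Zfp511, Zfp628 and Zfp784. Just outside were Zfp229 (98) and, at 95 each, Zfp653, Zfp94 and Zfp951. All 229 members entered the test, as did 107 of the 131 others, and the median lowest count of a member was 264.

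The question put to these genes was whether their messenger RNA differs between LCS and WT islets. In edgeR's quasi-likelihood test across 14539 genes, 0 of the 229 members were called higher or lower in LCS at an adjusted p under 0.05, while 2.06% of all genes were called higher and 0.144% lower. Among the 10066 genes that met the same minimum of 100 counts, 2.27% were called higher and 0.179% lower. With an unadjusted p below 0.05 there were 4 members higher and 44 lower in LCS, the latter 19.2% of members against 13.5% of all genes at the minimum (14.4% higher). DESeq2's Wald test called 1 member higher and 16 lower (6.99%), against 7.26% of genes at the minimum called higher and 5.15% lower. Limma-voom called 0 members, against 2.86% and 0.248% of those genes.

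Most members nevertheless had a value below 0. The log2 fold change (LCS over WT) was negative for 168 of 229 members (73.4%), against 50.1% of all genes at the minimum. Its median was -0.22 with quartiles of -0.42 and 0.01, beside a median of 0.01 over all genes tested. The extremes were Zfp329 at -1.18 and Zfp622 at 0.66. The 3 LCS values lay below all 3 WT values for 30 members (13.1%), a share close to the 14% of all genes at the minimum and 12% of all genes tested. They lay above all WT values for 6 members, against 15.7% and 14.6% of genes. The 95% confidence interval lay within a 2-fold change either way for 176 members (76.9%), against 79.8% of genes at the minimum. With all 6 libraries, the data thus bounded most members to less than a 2-fold difference between genotypes, as they did most genes at the minimum. Without WT replicate 1 some log2 fold changes went past that bound, among them Zfp329 (-1.48), Zfp871 (-1.21) and Zfp574 (1.07).

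WT replicate 1 weighed on how many members were called more than on their signs, as 171 of 229 had a negative log2 fold change without it. In 129 members (56.3%) its value lay inside the range of the LCS libraries, as it did in 48.3% of all genes at the minimum. WT replicates 2 and 3 both lay above every LCS library for 121 members (52.8%), against 31.4% of genes at the minimum, and for 91 of these 121 WT replicate 1 did not. Without WT replicate 1, edgeR called 8 members higher and 51 lower, the latter 22.3% of members against 10.2% of genes at the minimum and 7.68% of all genes tested, which had 12.5% called higher. The median of the members was then -0.33. Without any other single library 0 members were called and the median was -0.28 to -0.13. Where WT replicate 1 lay nearest to LCS, leaving it out widens the gap between groups by itself. Gene values without it, given below, are therefore no separate support for a difference. In that fit 14.6% of genes at the minimum were called higher and 10.2% lower.

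Zfp91, Zfp280c, Zfp654, Zfp207 and Zfp329 had the smallest p among members with lower values in LCS. Zfp91 is a ubiquitin ligase known for its part in noncanonical NF-kB signalling. In LCS it had 44.5, 45.8 and 36.6 CPM (replicates 1 to 3, here and below), and in WT 56.4, 69.5 and 76.4 CPM. No LCS library reached the lowest WT library. Its log2 fold change was -0.67 (SE 0.16, edgeR adjusted p = 0.0626), or -0.78 without WT replicate 1 (adjusted p = 0.00802). Zfp207, a microtubule-binding protein that loads Bub3 at the kinetochore, had 50.7, 57.0 and 52.4 CPM in LCS and 62.7, 84.5 and 91.4 CPM in WT. Again the groups did not overlap, and WT replicate 1 lay nearest to LCS. The log2 fold change was -0.58 (SE 0.17, edgeR adjusted p = 0.0913). Zfp654 had 16.01, 16.2 and 13.1 CPM in LCS and 18.2, 25.7 and 29.6 CPM in WT, again with WT replicate 1 nearest to LCS (-0.70, SE 0.20, edgeR adjusted p = 0.0912).

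Zfp329 had the lowest fold change of the members. Its values were 29.7, 32.6 and 17.1 CPM in LCS and 31.7, 65.1 and 83.4 CPM in WT. WT replicate 1 lay below LCS replicate 2, so the groups overlapped, while the other 2 WT libraries lay above every LCS library. The log2 fold change was -1.18 with a wide standard error of 0.34 (edgeR adjusted p = 0.0913), and -1.48 without WT replicate 1 (adjusted p = 0.00325). Zfp871 had the same pattern at a higher level, with 62.1, 76.8 and 42.5 CPM in LCS and 72.3, 115.0 and 165.0 CPM in WT (-0.96, SE 0.30, edgeR adjusted p = 0.107). Zfp280c on chromosome X had 9.37, 7.15 and 6.63 CPM in LCS and 9.73, 14.6 and 15.96 CPM in WT (-0.80, SE 0.23, edgeR adjusted p = 0.0898). The remaining members among the 10 with the smallest p in this direction were Zfp715, Zfp462, Zfp874b and Zfp942, with log2 fold changes of -0.79, -0.60, -0.73 and -0.74 and edgeR adjusted p of 0.0932 to 0.11.

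Zfp622, which works in the maturation of the large ribosomal subunit, had the highest fold change. It had 27.7, 22.9 and 30.5 CPM in LCS and 21.8, 14.1 and 15.5 CPM in WT. All LCS libraries lay above all WT libraries, by a small margin over WT replicate 1. The log2 fold change was 0.66 (SE 0.20, edgeR adjusted p = 0.101), and 0.87 without WT replicate 1 (adjusted p = 0.00817). Zfp637 had 9.47, 8.05 and 11.0 CPM in LCS and 6.84, 6.79 and 5.98 CPM in WT, also without overlap (0.54, SE 0.19, edgeR adjusted p = 0.131, but -0.031 with length and GC offsets). Zfp511, one of the members just inside the minimum, had 6.08, 5.46 and 6.54 CPM against 5.34, 3.63 and 2.74 CPM (0.62, SE 0.26, edgeR adjusted p = 0.186, but -0.035 with both offsets). Without WT replicate 1 it was at 0.92 (adjusted p = 0.02). The others with the smallest p in this direction were Zfp219, Zfp212, Zfp524, Zfp706, Zfp574, Zfp707 and Zfp768, at log2 fold changes of 0.28 to 0.64 and edgeR adjusted p of 0.203 to 0.261. Zfp524 turned to -0.17 with length and GC offsets. Without WT replicate 1, Zfp574 (0.60) was at 1.07 and Zfp768 (0.46) at 0.75, with edgeR adjusted p of 0.00422 and 0.0227, and Zfp219 and Zfp212 were called too. Of Zfp524, 46% of its 50-base windows also occur in the transcript of another gene, so its reads may be shared.

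**Figure D1:**
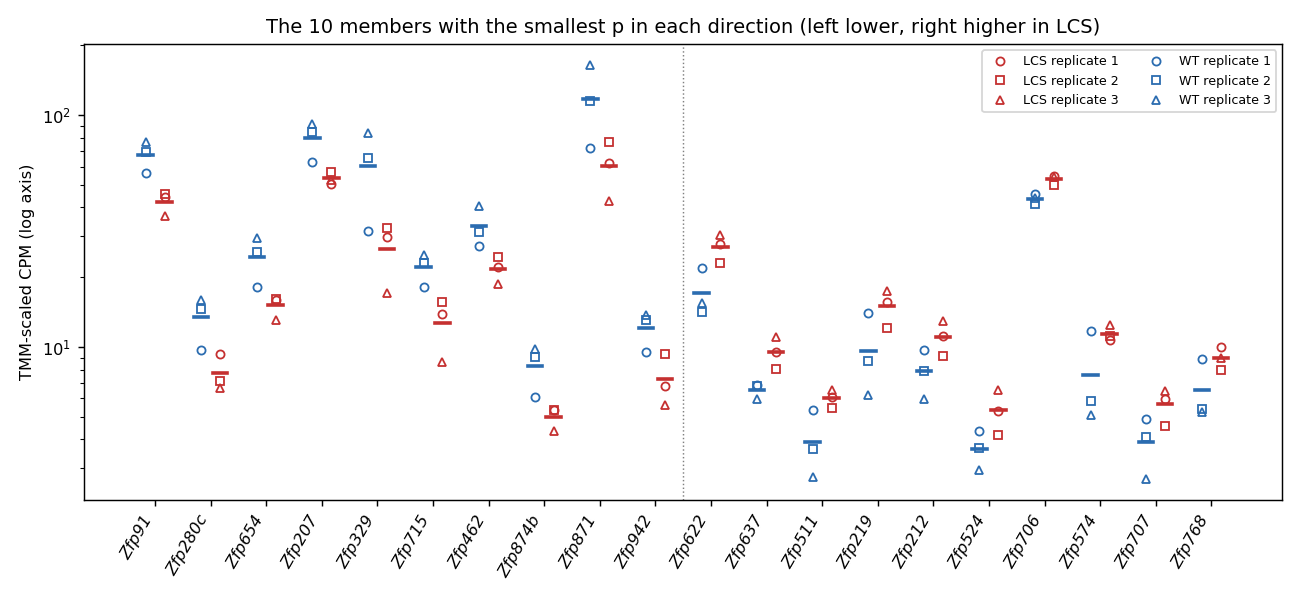
TMM-scaled CPM (log axis) of the 10 members with the smallest p in each direction, by library, with LCS in red, WT in blue, a marker shape for each replicate number and a bar for the mean of 3 libraries. WT replicate 1 (blue circle) lies nearest to the LCS libraries in Zfp91, Zfp207 and Zfp329, where it has 56.4, 62.7 and 31.7 CPM.

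Taken library by library, the median deviations of the members did not fall into 2 genotype groups. The deviation of each member from its own mean over the 6 libraries, on the log2 scale, had a median of -0.04, 0.0022 and -0.30 in LCS replicates 1 to 3 and of -0.08, 0.21 and 0.28 in WT replicates 1 to 3. LCS replicate 3 was the lowest library for 119 of 229 members and WT replicate 3 the highest for 114. WT replicate 1 was the lowest library for 39 members and WT replicate 3 for 36, each more often than LCS replicate 1 (15) or LCS replicate 2 (15). As a share of the counts outside the ribosomal rows, the members made up 0.535%, 0.584% and 0.414% in LCS and 0.616%, 0.708% and 0.758% in WT. The means were 0.511% ± 0.0877 and 0.694% ± 0.0724 (SD, n = 3). By this share, which uses no TMM factor, every WT library lay above every LCS library. The numbers in the titles of WT replicates 1 and 2 are far lower than in the other 4 titles, and their meaning is not given. By median deviation WT replicate 2 (0.21) lay near WT replicate 3 (0.28), which shares its genotype but not its low title number. Any part of the title numbers in the member values was not tested, since the low ones occur only in WT replicates 1 and 2. Without both of these libraries edgeR called 5 members higher and 9 lower (against 6.9% of genes at the minimum higher and 2.96% lower), with WT replicate 3 left as a lone library that is assumed to vary like the LCS libraries.

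**Figure D2:**
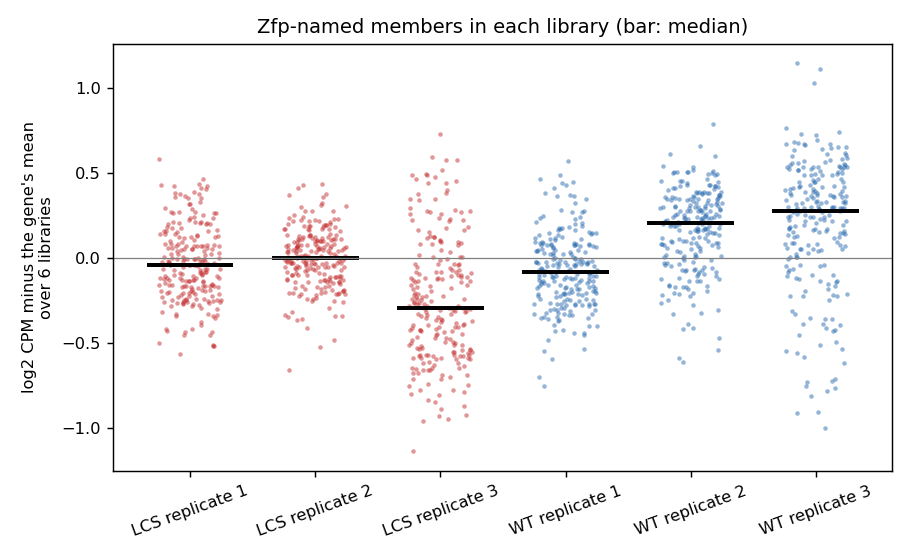
Deviation of each of the 229 members (points) from its own mean over the 6 libraries, in log2 CPM, by library, with the median as a bar. Medians are 0.21 and 0.28 in WT replicates 2 and 3, -0.30 in LCS replicate 3 and between -0.08 and 0.0022 in the other 3 libraries.

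The fold changes of the members were ordered by GC content. Transcript length and GC content came from the longest GENCODE M21 transcript, found for 228 of 229 members (not for Zfp783). The Spearman correlation between log2 fold change and GC content was 0.67 over the 228 members, and 0.51 over 9644 other protein-coding genes at the minimum. These are descriptions across genes, which share the same 6 libraries and their depth and are no independent replicates. Below 42% GC, 77 of 78 members had a negative log2 fold change, with a median of -0.42. At 42% to 45% the median was -0.29 (35 members), at 45% to 48% -0.25 (23) and at 48% to 51% -0.19 (29). At 51% and above, 21 of 63 members were negative and the median was 0.17. Other protein-coding genes at the minimum had medians of -0.40, -0.25, -0.14, -0.02 and 0.18 in the same classes, so members and other genes were closest in the lowest and the highest class and furthest apart at 48% to 51%. Members had a lower median GC content (45.3%) than the other protein-coding genes (50.1%).

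**Figure D3:**
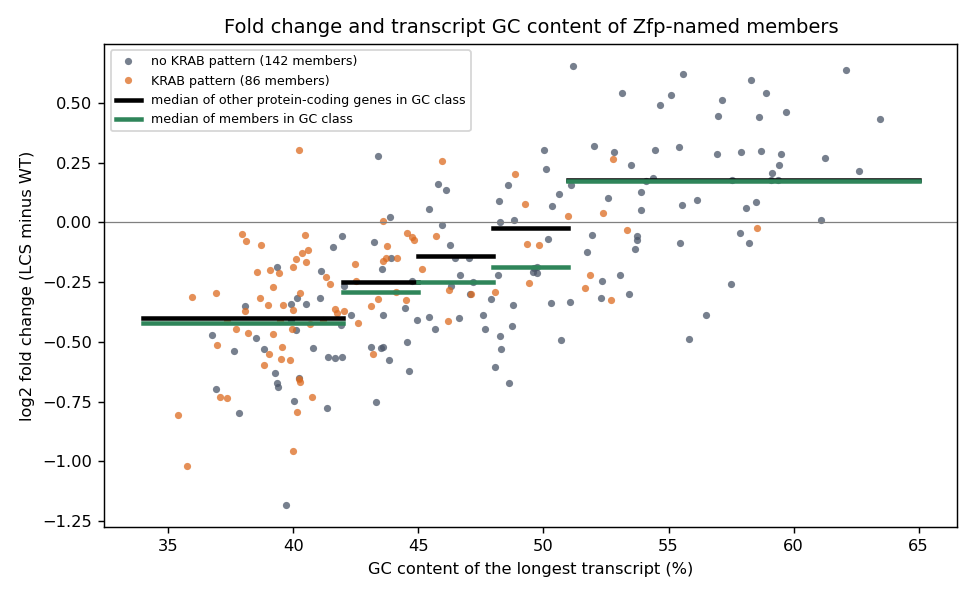
Log2 fold change of LCS over WT against GC content of the longest transcript for 228 members (points, orange with a KRAB pattern), with medians of members (green) and of other protein-coding genes at the minimum (black) in 5 GC classes. Member medians go from -0.42 below 42% GC to 0.17 at 51% and above, and the black lines from -0.40 to 0.18.

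The same ordering showed in single libraries. Spearman's correlation between GC content and a member's deviation from its mean was 0.64 in LCS replicates 1 and 3 and 0.60 in WT replicate 1, but -0.20 in LCS replicate 2, -0.75 in WT replicate 2 and -0.80 in WT replicate 3. WT replicate 1 thus sided with LCS replicates 1 and 3 on this measure. Other protein-coding genes at the minimum had values of the same sign in each library, 0.56, -0.15 and 0.54 in LCS and 0.40, -0.53 and -0.67 in WT. With the trend on GC content taken out of each library by a loess offset, chosen after seeing the data, the median of the members was -0.11, against -0.054 for all genes at the minimum. EdgeR then called Zfp560 higher and Zfp91, Zfp687, Zfp462 and Zfp329 lower, while 5.71% of genes at the minimum were called higher and 2.79% lower. With offsets for both length and GC content the median was -0.00699, the same as for all genes at the minimum, 120 of 228 members were negative and 0 were called. The part of GC content in the difference between genotypes was not tested.

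Length ordered the members less. The Spearman correlation of log2 fold change with transcript length was -0.35 over the members and -0.63 over the other protein-coding genes. Members shorter than 2000 bases had a median of 0.18 (12 members), those of 2000 to 3000 bases -0.02 (50), of 3000 to 4000 bases -0.20 (59), of 4000 to 6000 bases -0.33 (62) and of at least 6000 bases -0.32 (45). Other protein-coding genes had 0.43, 0.09, -0.04, -0.19 and -0.30. The members thus lay below the others in each of the 5 length classes, by most in the shortest.

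A KRAB core pattern was found in the coding sequence of 86 members. The pattern is strict and misses some true KRAB boxes, among them that of Zfp445. Of these 86, 78 (90.7%) had a negative log2 fold change, with a median of -0.29, and 0 were higher and 13 lower (15.1%, against 13.5% of genes at the minimum) at unadjusted p-values under 0.05. Of 142 members without the pattern 89 (62.7%) were negative, with a median of -0.19. At that p 4 of them were higher (2.82%) and 31 lower (21.8%), against 14.4% and 13.5% of genes at the minimum. The share lower at that p was thus larger without the pattern than with it. Members with the pattern had a median GC content of 40.7%, those without it 48.6%. The adjusted edgeR test called 0 in both classes. DESeq2 called 8 lower (9.3%) with the pattern and 1 higher and 8 lower (5.63%) without it. Of genes at the minimum it called 7.26% higher and 5.15% lower. Without WT replicate 1 edgeR called 20 lower with the pattern and 8 higher and 30 lower without it. Of genes at the minimum it then called 14.6% higher and 10.2% lower. Fingers were counted as cysteine pairs and histidine pairs at the usual spacing. The median log2 fold change was -0.06 for members with 0 to 4 fingers (36), -0.15 with 5 to 9 (67), -0.27 with 10 to 14 (78) and -0.34 with 15 or more (47), and median GC content in these classes was 48.7%, 48.6%, 43.4% and 41.9%. The members with the most fingers were Zfp142 (36, log2 fold change -0.11, SE 0.16) and Zfp462 (33, -0.60, SE 0.18).

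Zfp genes arose largely by local duplication and lie in clusters. In the RefSeq gene order of GRCm38.p6, 71 of 228 placed members (31.1%) stood in 11 runs of at least 4, with at most 3 other coding genes between neighbours. The longest run, on chromosome 17 from Zfp54 to Zfp40, held 13 members. All had the KRAB pattern and all had a negative log2 fold change (-0.81 to -0.21, median -0.44). GC content in this run was, for example, 40% in Zfp54, 35.4% in Zfp758 and 37.7% in Zfp40. Of all members below 42% GC, in runs or not, 77 of 78 were negative, with a median of -0.42. The part of GC content in the values of the run was not tested. Zfp758 was the lowest of them, with 6.26, 9.53 and 4.91 CPM in LCS and 8.82, 12.7 and 14.9 CPM in WT (-0.81, SE 0.28, edgeR adjusted p = 0.128). Zfp51 was the highest, with 8.01, 9.997 and 5.55 CPM against 6.65, 10.5 and 10.1 CPM (-0.21, edgeR adjusted p = 0.647). Both genes had LCS replicate 3 as their lowest library. On chromosome 13 all 9 members from Zfp874a to Zfp65 were negative (median -0.27), and so were all 7 from Zfp871 to Zfp563 on chromosome 17 (-0.41).

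A run on chromosome 6 went the other way. Of its 7 members, from Zfp398 to Zfp467, 6 had a positive log2 fold change (median 0.30) and 0 had the KRAB pattern. Zfp212 had the highest value, with 11.1, 9.13 and 12.98 CPM in LCS and 9.69, 7.90 and 5.98 CPM in WT (0.49, SE 0.22, edgeR adjusted p = 0.209). Zfp398, the only negative one, had 8.67, 11.5 and 8.74 CPM in LCS and 9.02, 14.5 and 14.6 CPM in WT (-0.39, edgeR adjusted p = 0.305). GC content was 54.5% to 59.1% in the 6 positive genes and 45.4% in Zfp398. On chromosome 7, the run of 4 from Zfp768 to Zfp689 had 1 negative member (median 0.15), and 3 had the KRAB pattern. The run of 4 from Zfp60 to Zfp780b on that chromosome had 4 negative members (median -0.44), and 0 had the pattern. Genes of a run share ancestry and some share sequence, so they are not independent. In 27 members more than 10% of the 50-base windows also occur in another gene, and the median of these 27 was -0.26, against -0.22 for the other 201.

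**Figure D4:**
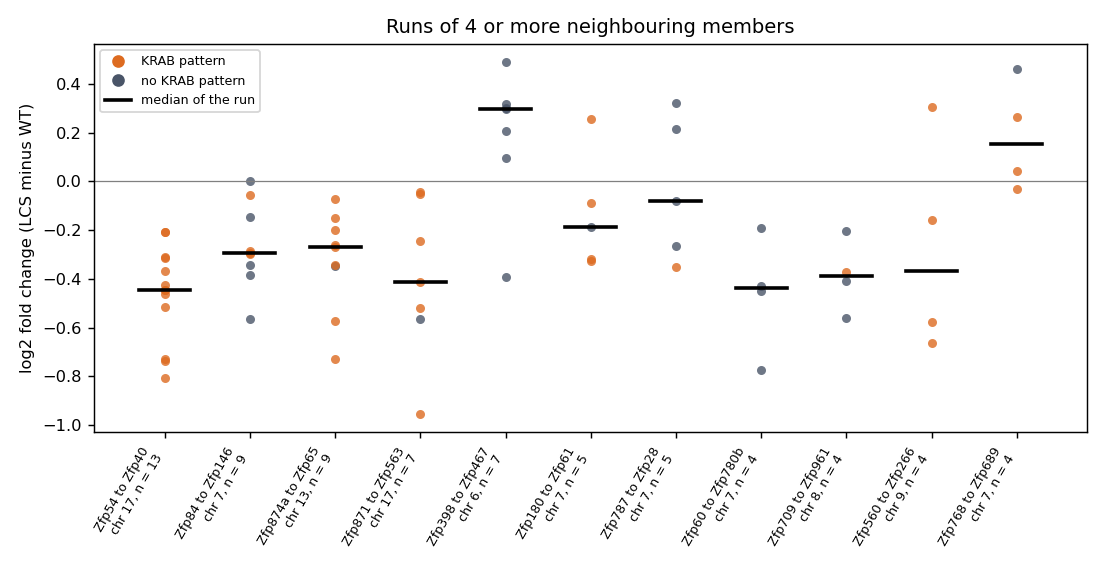
Log2 fold change of LCS over WT for members in the 11 runs of 4 or more neighbours (points, orange with a KRAB pattern), with the median of each run as a bar. All 13 members of the longest run, on chromosome 17, lie below 0, and 6 of 7 members of the chromosome 6 run lie above 0.

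Of 8 Zfp genes listed for imprint maintenance or retroelement silencing, 5 were members (Zfp445, Zfp568, Zfp809, Zfp932 and Zfp961), while Zfp57, Zfp708 and Zfp819 fell below the minimum. All 5 had a negative log2 fold change, with a median of -0.37. EdgeR called 0 of them, 1 was lower at unadjusted p-values under 0.05, and DESeq2 called 1 lower. Among genes at the minimum, 13.5% were lower at that p and 5.15% were called lower by DESeq2. Zfp445, which maintains imprints beside Zfp57, had 63.9, 73.0 and 40.3 CPM in LCS and 73.5, 107.2 and 117.7 CPM in WT. WT replicate 1 exceeded the highest LCS library by a small margin, and the log2 fold change was -0.75 (SE 0.24, edgeR adjusted p = 0.114), or -0.93 without WT replicate 1 (adjusted p = 0.0163). Zfp809, which silences retroviruses through their primer binding site, had 11.4, 12.9 and 6.76 CPM in LCS and 9.61, 12.9 and 13.2 CPM in WT. Its groups overlapped almost fully (-0.19, SE 0.25, edgeR adjusted p = 0.657). Zfp568, known for repressing a placental promoter of Igf2, lay at -0.30 (SE 0.21), Zfp961 at -0.37 (SE 0.21) and Zfp932 at -0.41 (SE 0.24), each with an edgeR adjusted p of 0.313 to 0.407. Without WT replicate 1, Zfp932 was at -0.65 (edgeR adjusted p = 0.0193), and it and Zfp445 were the 2 of these 5 called. Without that library 10.2% of genes at the minimum were called lower. For Zfp932, 45.2% of the windows also occur in another gene.

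Among 19 listed sequence-specific regulators without a KRAB box, 14 were members, with a median of -0.23. EdgeR called 0 of them, and 1 was higher and 3 lower at unadjusted p-values under 0.05. DESeq2 called 1 lower, and edgeR without WT replicate 1 called 2 higher and 3 lower. Of genes at the minimum, 14.4% were higher and 13.5% lower at that p, and DESeq2 called 7.26% and 5.15%. Without WT replicate 1 edgeR called 14.6% of those genes higher and 10.2% lower. Zfp462, a large heterochromatin-associated protein of embryonic development, had 22.1, 24.5 and 18.8 CPM in LCS and 27.4, 31.4 and 40.7 CPM in WT, without overlap (-0.60, SE 0.18, edgeR adjusted p = 0.103). Zfp281, a regulator of pluripotent cells, had 12.0, 12.6 and 8.83 CPM in LCS and 13.02, 16.1 and 19.0 CPM in WT (-0.52, SE 0.20, edgeR adjusted p = 0.158). Here too WT replicate 1 lay close to the LCS libraries. Zfp384 was separated by little but with little spread, at 21.4, 21.2 and 22.0 CPM in LCS and 25.3, 27.5 and 26.7 CPM in WT (-0.30, SE 0.14, edgeR adjusted p = 0.209). Zfp219 had the highest value, 15.7, 12.1 and 17.4 CPM in LCS against 14.1, 8.71 and 6.19 CPM in WT (0.64, SE 0.28, edgeR adjusted p = 0.203), with WT replicate 1 inside the LCS range. Without that library it was at 1.01 (edgeR adjusted p = 0.0115). Zfp410, known as an activator of Chd4, lay at -0.21 (SE 0.15), and Chd4 at -0.23 (SE 0.14). Zfp64 lay at 0.44, or 0.81 without WT replicate 1 (edgeR adjusted p = 0.0476). Zfp335 and Zfp395 lay at 0.18 and 0.19, and Zfp143, Zfp148, Zfp217, Zfp292, Zfp318 and Zfp516 between -0.41 and -0.06.

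Of 12 Zfp genes listed for RNA, ribosome, spindle, SUMO or ubiquitin functions, 11 were members and Zfp593 was not, with a lowest count of 92. Their median was -0.30. EdgeR called 0 of them, and 1 was higher and 3 lower at unadjusted p-values under 0.05. DESeq2 called 1 higher and 2 lower, and edgeR without WT replicate 1 called 1 higher and 3 lower. Of genes at the minimum, 14.4% were higher and 13.5% lower at that p, and DESeq2 called 7.26% and 5.15%. Without WT replicate 1 edgeR called 14.6% of those genes higher and 10.2% lower. Beside Zfp91, Zfp207 and Zfp622, described above, Zfp326, part of a complex that joins transcription to splicing, had 10.4, 17.3 and 10.2 CPM in LCS and 16.3, 16.8 and 21.7 CPM in WT. LCS replicate 2 lay among the WT libraries (-0.52, SE 0.23, edgeR adjusted p = 0.202). Zfp36, the messenger RNA decay factor tristetraprolin, had 14.02, 15.6 and 19.3 CPM in LCS and 20.5, 13.8 and 8.96 CPM in WT. The WT libraries spanned the LCS range (0.17, SE 0.27, edgeR adjusted p = 0.722). Zfp598, a ubiquitin ligase that senses collided ribosomes, lay at 0.24 (SE 0.25) and Zfp451, a SUMO ligase, at -0.31 (SE 0.16). The double-stranded RNA-binding Zfp346 lay at -0.25, Zfp638 at -0.31 (-0.50 without WT replicate 1, edgeR adjusted p = 0.0438), Zfp106 at -0.30 and the splicing-associated Zfp830 at 0.16.

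Levels between genes were compared per kilobase of the longest transcript. Zfp869 had 22.7 ± 0.856 CPM per kb in LCS and 25.1 ± 4.13 in WT, Zfp207 18.4 ± 1.14 and 27.4 ± 5.17, and Zfp330 22.8 ± 2.11 and 22.0 ± 0.934 (SD, n = 3). The spreads of these 3 overlapped in WT, and in LCS Zfp207 lay below the other two. Zfp664 had 16.96 ± 2.52 and 22.9 ± 3.2. By the mean of all libraries Zfp106 came next, with 12.0 ± 2.42 and 14.8 ± 1.15, within the spread of several others: in WT, Zfp950, Zfp445 and Zfp146 had higher means. Of Zfp330, 19.1% of the windows also occur in another gene. By CPM without length, the highest members were Zfp106, Zfp516, Zfp871, Zfp664 and Zfp445. Zfp516, known for driving brown fat genes, had 110.4, 109.2 and 83.4 CPM in LCS and 116.6, 103.3 and 95.5 CPM in WT and hardly differed in mean (-0.06, SE 0.16, 95% interval -0.41 to 0.30). The median member lay at 11.3 CPM, against 20.1 CPM for all genes at the minimum.

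The partners of KRAB proteins were described from a list of 33 corepressor, HP1, NuRD, HUSH and methyltransferase genes, all tested. EdgeR called 0, with a median of 0.01. The list was not held to the minimum, and Uhrf1 had a mean of only 0.42 CPM in LCS and 0.40 in WT. At unadjusted p-values under 0.05 there were 1 higher (3.03%) and 6 lower (18.2%). At that p 14.4% of genes at the minimum were higher and 13.5% lower, and of all genes tested 13.3% and 10.8%. DESeq2 called 2 lower (6.06%), against 5.15% of genes at the minimum and 3.95% of all genes tested. Without WT replicate 1 edgeR called 2 higher and 6 lower, against 14.6% and 10.2% of genes at the minimum. Trim28, the scaffold that binds the KRAB box, had 45.9, 39.6 and 65.8 CPM in LCS and 48.5, 43.0 and 36.9 CPM in WT. Its groups overlapped (0.24, SE 0.20, edgeR adjusted p = 0.496). Setdb1, the methyltransferase that Trim28 recruits, had 14.8, 12.5 and 13.8 CPM in LCS and 17.5, 20.4 and 19.9 CPM in WT. The groups were apart and WT replicate 1 was the nearest (-0.49, SE 0.15, edgeR adjusted p = 0.104, or 0.0312 without WT replicate 1). Fam208a, a subunit of the HUSH silencing complex, had 34.6, 33.2 and 26.8 CPM in LCS and 37.3, 52.8 and 65.6 CPM in WT (-0.72, SE 0.21, edgeR adjusted p = 0.0941). The HP1 gene Cbx5 lay at -0.57, the remodeller Smarcad1 at -0.56 and the modifier Sumo2 at 0.38, each with an edgeR adjusted p of 0.136 to 0.167.

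Other zinc finger families at the same minimum were set beside the members. The 31 Zbtb genes had a median of -0.10 with 17 negative, the 16 Zscan and Zkscan genes -0.13 with 10 negative, and the 12 Klf and Sp genes -0.43 with 10 negative. EdgeR called 0 in each family. At unadjusted p-values under 0.05 there were 1 higher and 10 lower (32.3%), 1 higher and 3 lower (18.8%), and 0 higher and 7 lower (58.3%), against 13.5% of genes at the minimum lower and 14.4% higher. Without WT replicate 1 edgeR called 2 higher and 7 lower, 0 and 3, and 0 and 4 in the families in this order. Of genes at the minimum, 14.6% were then called higher and 10.2% lower. DESeq2 called 1 higher and 6 lower Zbtb genes, 2 lower Zscan or Zkscan genes and 1 lower Klf or Sp gene, against 5.15% of genes at the minimum lower, and limma-voom called 1 Zbtb gene higher. No difference between the families and the members was tested. Median GC content was 48.5%, 47.7% and 46.3% in the 3 families.

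Promoters were not used in the choice of members, although expression was, and they are described without a test. RefSeq promoters (GRCm38.p6, 250 bases before to 50 after a start) were given for 191 of 229 members, 232 promoters in all. Their median number of CpG pairs was 16, against 7 over 32851 promoters of all genes. The letters CCATNTT (the core of the YY1 motif), on either strand, were found in 23.7% of member promoters and 16.1% of all. CCGGAA, the core read by ETS factors, was found in 37.1% against 14.9%, and GGGCGG, read by Sp factors, in 49.1% against 35.7%. CCGGAA and GGGCGG each hold a CpG pair, and their shares were not compared among promoters of like CpG number. Where a GGGCGG and another motif overlap, both were counted. The set of all promoters holds those of genes with and without counts in islets. The promoters of the members with the smallest p in each direction, Zfp91 and Zfp622, are printed with these letters in capitals.
Zfp91, chr19:12796074-12796373, minus strand: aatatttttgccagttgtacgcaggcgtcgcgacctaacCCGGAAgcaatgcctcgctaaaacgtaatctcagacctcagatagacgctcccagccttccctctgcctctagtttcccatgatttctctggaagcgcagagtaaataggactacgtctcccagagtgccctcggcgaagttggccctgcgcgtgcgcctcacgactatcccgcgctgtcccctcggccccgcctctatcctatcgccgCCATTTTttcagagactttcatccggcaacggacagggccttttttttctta
Zfp622, chr15:25984116-25984415, plus strand: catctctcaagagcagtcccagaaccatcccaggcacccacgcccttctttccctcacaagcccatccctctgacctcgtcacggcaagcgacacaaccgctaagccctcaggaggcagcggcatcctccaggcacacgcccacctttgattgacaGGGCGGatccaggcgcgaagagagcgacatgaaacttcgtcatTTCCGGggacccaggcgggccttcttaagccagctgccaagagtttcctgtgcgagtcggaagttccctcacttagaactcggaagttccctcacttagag
Zfp91 held 1 CCATNTT and 1 CCGGAA match and 24 CpG pairs. Zfp622 held 1 CCGGAA match, on the opposite strand, 1 GGGCGG match and 17 CpG pairs. Both are promoters rich in CpG pairs, although the genes differed in the direction of their fold change.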

How the data were processed

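Poly(A) RNA from islets was sequenced from libraries of a stranded TruSeq kit, per the labels' protocols. Per the submitters' processing notes the tools were HTSeq 0.9.0, TopHat2 2.1.1, Bowtie2 2.2.9, bcl2fastq 2.20 and FastQC, and the build mm9. The gene annotation, and whether strand was used in counting, is not given in the sources used here. Overlapping or antisense genes may therefore share reads. The deposited values are raw counts per gene, not normalised by the authors. The sample source labels gave the groups. Replicate numbers follow accession order and pair no libraries.

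Genotypes were compared with edgeR 4.0.16 in R 4.3.3 (filterByExpr, TMM, quasi-likelihood, genotype as the only term, Benjamini-Hochberg over 14539 genes, calls at an adjusted p under 0.05). The steps were tested on simulated counts. P-values measure the spread between pools. Alternatives were DESeq2 1.42.0 (size factors, Wald test), limma-voom (limma 3.58.1), other filters, other minimum counts for members, leaving out ribosomal rows or each library, protein-coding genes only, and loess offsets (span 0.5) for length or GC content.

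Transcript features came from GENCODE M21. RefSeq gene numbers matched 24320 genes. Both use GRCm38 and the counts mm9, so the gene order in runs and the promoter coordinates are not in the build of the counts. Named genes were, in each direction, the 10 members with the smallest p, the members of 3 role lists, the 5 highest by CPM and per kb, those nearest the minimum, those with most fingers, runs of neighbours, and Trim28, Setdb1 and 4 further corepressor genes. Zfp687, Zfp560, Zfp783, Zfp950 and Zfp146 were named after their values were seen. Members and lists were chosen with earlier results of these data known. Figures used matplotlib 3.10.9.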

Additional observations from a re-analysis of the deposited data

How the results depend on the processing

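The member median was below 0 under each of the alternatives run (-0.35 to -0.00699). With length and GC offsets, however, it equalled the median of all genes at the minimum (-0.00699), and with the GC offset it was -0.11 against -0.054 for those genes. Over all genes, 300 calls higher and 21 lower became 932 and 575 with DESeq2's Wald test, 560 and 126 with no filter, 637 and 298 with the GC offset and 884 and 331 without WT replicates 1 and 2. With the length offset they were 26 and 4, and with length and GC offsets 59 were higher. Leaving out each library in turn gave 81 to 1857 higher and 1 to 1142 lower, the highest of both without WT replicate 1. Members called, 0 in both directions, became 1 higher and 16 lower with DESeq2's Wald test, 1 and 4 with the GC offset, 5 and 9 without WT replicates 1 and 2, 2 lower with no filter, and 0 to 8 higher and 0 to 51 lower over the libraries left out in turn. The member median of -0.22 became -0.00699 with length and GC offsets, and was -0.33 to -0.13 over the libraries left out. Corepressor genes called, also 0, became 2 lower with DESeq2, 1 higher and 1 lower with the GC offset and without WT replicates 1 and 2, and 0 to 2 higher and 0 to 6 lower over the libraries left out. A minimum of 50 counts gave 280 members and one of 200 gave 154, with medians of -0.22 in both. The cause of these shifts was not tested.

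Some genes changed sign, among them Zfp511, Zfp637 and Zfp524 of the members with the smallest p in the higher direction. With length and GC offsets the log2 fold change was 0.053 for Zfp106, 0.22 for Zfp148, 0.059 for Zfp217, 0.24 for Zfp292, 0.064 for Zfp318, -0.15 for Zfp330, 0.25 for Zfp451, -0.035 for Zfp511, 0.13 for Zfp516, -0.17 for Zfp524, 0.0043 for Zfp568, -0.031 for Zfp637, 0.29 for Zfp638, -0.15 for Zfp830, -0.058 for Sumo2 and -0.0097 for Trim28. With the length offset it was 0.090 for Zfp217, -0.26 for Zfp330, 0.018 for Zfp451, 0.20 for Zfp516, 0.00095 for Zfp638, -0.19 for Zfp830 and -0.21 for Sumo2. With the GC offset, chosen after seeing the data, it was -0.17 for Zfp335, -0.12 for Zfp598, 0.029 for Zfp638, 0.055 for Zfp869, 0.044 for Zfp932 and -0.17 for Trim28. Over the libraries left out in turn, Zfp36 was at -0.076 (without WT replicate 3) to 0.52 (without WT replicate 1), Zfp809 at -0.37 (without LCS replicate 2) to 0.046 (without LCS replicate 3) and Zfp516 at -0.12 (without WT replicate 3) to 0.072 (without LCS replicate 3). Zfp516 was also positive without WT replicate 1 (0.026) and without WT replicates 1 and 2 (0.082). None of these 34 values was called. No paired analysis was possible because the replicate numbers are accession order and the labels pair no libraries. Calls rest on 3 pools per genotype, and members near 100 counts carry the widest counting error.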
